A study of Caenorhabditis elegans with 2 samples.

Results

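The 10 genes described here encode subunits of the nucleosome remodelling and deacetylase complex NuRD and its partners (egl-27, lin-40, let-418, chd-3, hda-1 and mep-1) or the maternal-effect sterile proteins (mes-2, mes-3, mes-4 and mes-6) of Caenorhabditis elegans. They were taken by name, with earlier results of these data known, from the 19973 protein-coding genes on the nuclear chromosomes, and all 10 were found in the annotation. The binding data came from chromatin immunoprecipitation and sequencing (ChIP-seq) of whole embryos of mixed stages and both sexes, in 2 biological replicates that formed 1 group. The strain, OP174, was unc-119(ed3) and carried the insertion wgIs174, a copy of ces-1 fused to TY1, EGFP and FLAG together with unc-119, so that every sample held the tagged copy and no untagged group was compared. The antibody label names the target ces-1 alone, and the gene is known as a Snail-type zinc finger factor of the neuronal lineages. Whole embryos were used, so a site cannot be assigned to a cell type.

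NuRD joins an ATPase of the Mi-2 type to histone deacetylases and is known to restrain transcription. In C. elegans its subunits act in vulval, neuronal and germline-soma decisions. MES-2, MES-3 and MES-6 form a complex like Polycomb repressive complex PRC2, which methylates histone H3 and keeps chromatin silent, while MES-4 methylates another lysine of the same histone on germline genes and passes that mark to the embryo. The mes genes are known above all for the survival of the primordial germ cells.

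The measurements were binding peaks, each with a summit (the base of highest enrichment) and a signal deposited by the authors, whose scale is not given. A thresholded list of the pooled replicates held 6290 peaks, of which 6273 were nuclear, with signals from 58.7 to 3177 around a median of 119. This list had passed a test of irreproducible discovery rate (IDR), which compares peak ranks between replicates. Each replicate also had a relaxed list of 30000 peaks. Read depth is unknown, since the lists hold no counts. A summit counted for a gene when it lay in the body (the annotated span) or within 5 kb of it, and as a promoter summit when any annotated 5′ end of the gene was at most 1000 bp downstream or 200 bp upstream of it. Positions are on ce11 (WBcel235), counted from 1.

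The sequences at 7 summits carry the description that follows. They are the strongest site of each of 5 genes (egl-27, mes-6, lin-40, mep-1 and hda-1), the second strong site of egl-27 and the promoter site of mes-2. Each is the stretch within 50 bp of the summit that lies outside annotated exons, read from the RefSeq WBcel235 genome. Capitals mark matches to the general E-box CANNTG, which includes the Snail-type E-box CAGGTG and its reverse CACCTG, or to GAGAGA and its reverse TCTCTC.
egl-27 strongest intronic site (chrII:6835653-6835753, plus strand): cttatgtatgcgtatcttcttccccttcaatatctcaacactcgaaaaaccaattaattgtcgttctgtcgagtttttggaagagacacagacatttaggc
egl-27 second intronic site (chrII:6844880-6844980, plus strand): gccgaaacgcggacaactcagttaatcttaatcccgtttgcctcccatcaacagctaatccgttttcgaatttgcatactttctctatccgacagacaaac
mes-6 promoter site (chrIV:8511207-8511283, plus strand): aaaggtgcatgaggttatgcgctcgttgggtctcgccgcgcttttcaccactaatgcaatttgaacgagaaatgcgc
mes-2 promoter site (chrII:14383803-14383903, plus strand): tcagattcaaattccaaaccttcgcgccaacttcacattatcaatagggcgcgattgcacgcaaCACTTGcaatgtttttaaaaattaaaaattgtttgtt
lin-40 promoter site (chrV:3704115-3704215, plus strand): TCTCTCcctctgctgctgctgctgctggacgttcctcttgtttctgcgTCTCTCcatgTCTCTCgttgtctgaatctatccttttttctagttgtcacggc
mep-1 upstream site (chrIV:11522779-11522879, plus strand): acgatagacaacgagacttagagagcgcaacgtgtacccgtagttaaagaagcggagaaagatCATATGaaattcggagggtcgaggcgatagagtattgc
hda-1 downstream site (chrV:14527652-14527752, plus strand): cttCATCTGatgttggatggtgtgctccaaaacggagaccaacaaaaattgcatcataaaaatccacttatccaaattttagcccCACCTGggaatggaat

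Of the 10 members, 7 had at least 1 thresholded summit within 5 kb, against 42.3% of all protein-coding genes. Promoter summits were found at 5 of 10, against 16.2% of all protein-coding genes and 19.5% of those within the members' range of lengths (2023 to 12901 bp). Only egl-27 had summits inside its body, and 1 of 10 is close to the background of 7.19% for all genes and 10.4% for the members' length range. The 22 summits had a median signal of 111, near that of the whole list, and ran from 63.1 to 528. Of them, 13 were intergenic, 7 intronic, 1 in a coding exon and 1 in an untranslated exon of a neighbouring gene. All 7 intronic summits lay in egl-27. The shares of these placements over all thresholded summits were not computed, so the counts have no background. The groups were too small, and the members chosen with earlier results known, for any test over genes, so the comparisons between them below are descriptions.

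**Figure D1:**
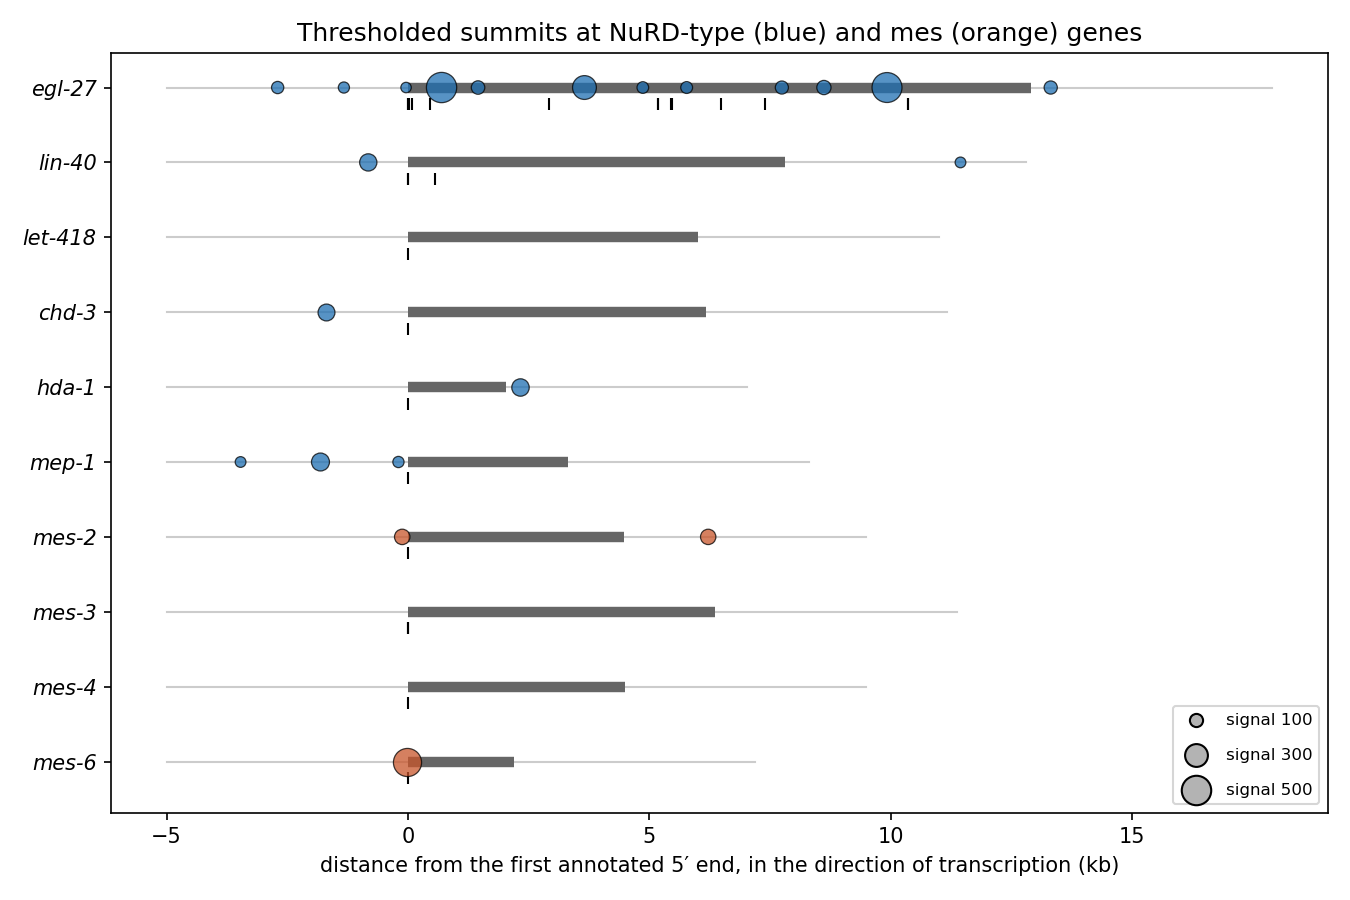
Map of the thresholded summits at each gene. The horizontal axis is the distance in kb from the first annotated 5′ end, the thick bar is the gene body, the thin line the 5 kb on either side, the short marks are annotated 5′ ends, and the area of a circle is proportional to the pooled signal. The 8 summits inside a gene body all lie in egl-27.

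Among the MTA-like genes of NuRD, egl-27 had the most sites of all members. EGL-27, a protein of this family that acts in cell polarity, cell migration and embryonic patterning, is encoded on the plus strand of chromosome II from 6835008 to 6847908. It held 12 of the 22 summits, with 8 in the body, 3 upstream and 1 downstream. Of all protein-coding genes, 6 (0.03%) had at least 12 summits in this span and 17 (0.0851%) had at least 8 in the body. Its density was 5.24 summits per 10 kb searched, against 0.626 over the nuclear genome, and 19 genes were denser.

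The strongest egl-27 site, shown first above, had a signal of 528 in the pooled list (rank 210), 245 in replicate 1 and 285 in replicate 2. It lay in an intron, 231 bp past an annotated 5′ end and so just outside the promoter window. The next, at 6844930, had a signal of 517 (rank 221), with 227 in replicate 1 and 290 in replicate 2, and lay in an intron 430 bp upstream of the most downstream pair of 5′ ends. These 2 sites changed order between the replicates, so they cannot be ranked against each other.

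A further intronic site, at 6838663, had a signal of 327 (rank 597), with 177 in replicate 1 and 160 in replicate 2. The other 9 summits at egl-27 were weaker, from 63.1 to 117 in the pooled list. The site 40 bp upstream of the first 5′ end was the weakest, with a pooled signal of 63.1, and the replicates disagreed there, at 58.9 and 15.1. The 3 strongest sites of egl-27 lay within the gene and not at its most upstream start.

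In all, 4 of the 12 summits lay in the promoter window of at least 1 of the 14 annotated 5′ ends of egl-27. They included the site at 6840780, in a coding exon and 703 bp upstream of an internal 5′ end (pooled signal 80.7). Among the 45 protein-coding genes with 10 or more annotated 5′ ends, 57.8% had a promoter summit, so a promoter summit at egl-27 is near what such genes show. Introns made up 68.4% of its body and held 7 of the 8 body summits. Of the 998 protein-coding genes of 10 kb or more, 40.9% had a body summit, with a median density within 5 kb of 0.473 per 10 kb, and none was denser than egl-27. The downstream summit (pooled signal 100.4) lay in an untranslated exon of its neighbour tbc-6, 10 bp from a 5′ end of that gene.

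**Figure D2:**
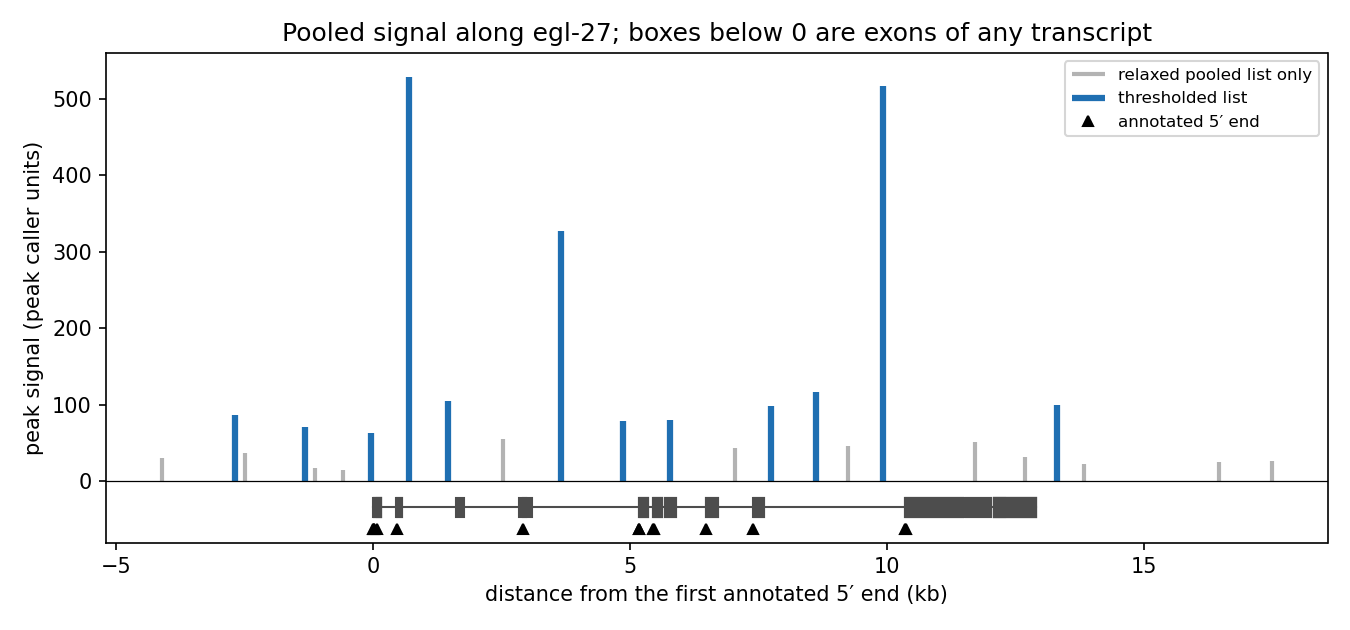
Pooled signal along egl-27. The horizontal axis is the distance in kb from the first annotated 5′ end and the vertical axis the peak signal; blue bars are thresholded summits, grey bars entries of the relaxed pooled list alone, boxes below 0 exons and triangles annotated 5′ ends. The bars of 528, 327 and 517 stand above the other 9 thresholded summits.

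LIN-40, the other MTA-like protein, is needed for viability and vulval development. Its gene (chromosome V, 3704988 to 3712796, plus strand) had a promoter summit 823 bp upstream of the first 5′ end, with a pooled signal of 172, 98.1 in replicate 1 and 78.0 in replicate 2. A second summit, 3636 bp past its 3′ end, had a pooled signal of 66.4 and lay in the promoter window of nrsn-1. With 3844 intronic bp and 0 body summits, lin-40 differed in this respect from egl-27. It was like most genes in this, since 10.4% of those in the members' length range had a body summit.

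The ATPase genes had few sites, as most genes do, since the median over all protein-coding genes was 0 summits within 5 kb. LET-418, the Mi-2 protein needed for larval development and vulval fates, and CHD-3, its close relative, are encoded on chromosomes V (5826833 to 5832831) and X (12846439 to 12852601). No thresholded summit lay within 5 kb of let-418, and the nearest was 13378 bp outside it. Replicate 1 had a weak peak 982 bp upstream of its 5′ end (signal 37.8, rank 5076), which had no match within 100 bp in replicate 2 or in the relaxed pooled list.

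At chd-3 a single intergenic summit lay 1702 bp upstream of the 5′ end, outside the promoter window. Its signal was 164 in the pooled list, 82.5 in replicate 1 and 79.4 in replicate 2, and the replicates were close. Neither ATPase gene had a promoter summit in the thresholded list.

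HDA-1 is the main class I histone deacetylase of the worm embryo and a catalytic part of NuRD. The only thresholded summit near its gene (chromosome V, 14525389 to 14527411, plus strand) lay 291 bp past the annotated 3′ end. It had a pooled signal of 175, 86.7 in replicate 1 and 88.7 in replicate 2. Replicate 2 also had a peak 212 bp from that summit, with a signal of 90.1 and no match in replicate 1. The nearest 5′ end of any protein-coding gene was that of hda-1 itself, at 2313 bp.

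MEP-1, a zinc finger protein that works with LET-418 and HDA-1 to keep germline genes silent in somatic cells, is encoded on chromosome IV (11524642 to 11527954, plus strand). All 3 of its summits lay upstream. The strongest, 1813 bp upstream of the 5′ end, had a pooled signal of 186, with 75.5 in replicate 1 and 111 in replicate 2. It lay outside the promoter window and nearer to a 5′ end of gfl-1, at 1539 bp. The promoter summit, 198 bp upstream, was weaker, at 72.8 in the pooled list, 26.9 in replicate 1 and 45.0 in replicate 2. The farthest, 3468 bp upstream (pooled signal 66.4), lay in the promoter windows of gfl-1 and M04B2.4 and was nearest to the 5′ end of gfl-1.

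The mes genes had fewer sites but included 1 of the strong ones. MES-6, the WD-repeat protein that corresponds to ESC and EED, is encoded on chromosome IV (8511284 to 8513469, plus strand). Its single summit lay 27 bp upstream of the 5′ end, with a pooled signal of 456 (rank 278), 228 in replicate 1 and 234 in replicate 2. Of all protein-coding genes, 3.03% had a summit at least this strong within 5 kb. The same summit lay in the promoter window of tag-77, which starts on the other strand.

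MES-2, the methyltransferase subunit that corresponds to Enhancer of zeste, is encoded on chromosome II (14383973 to 14388454, plus strand). Its promoter summit lay 120 bp upstream of the 5′ end, with a pooled signal of 137, 78.1 in replicate 1 and 61.4 in replicate 2. A second summit of like strength, 1737 bp past the 3′ end, had a pooled signal of 136, 80.4 in replicate 1 and 53.4 in replicate 2. It lay in the promoter windows of kbp-3 and nurf-1, the latter a gene of the NURF remodelling complex.

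MES-3, the third subunit of the complex, and MES-4, the methyltransferase of germline genes, had no thresholded summit within 5 kb of their genes (chromosome I, 4996835 to 5003202, and chromosome V, 13433050 to 13437545). The nearest summits lay 12629 bp and 20587 bp outside. Of all protein-coding genes, 37.4% had none within 12 kb, so these 2 genes and let-418 are not unusual in that. No share was computed at 20587 bp, so the longer gap at mes-4 has no background. In the relaxed pooled list mes-3 had 6 entries within 5 kb, the best with a signal of 38.2 (rank 9131) and 789 bp upstream of the first 5′ end. That list had no entry within 5 kb of mes-4 or let-418, as was the case for 35.7% of protein-coding genes.

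**Figure D3:**
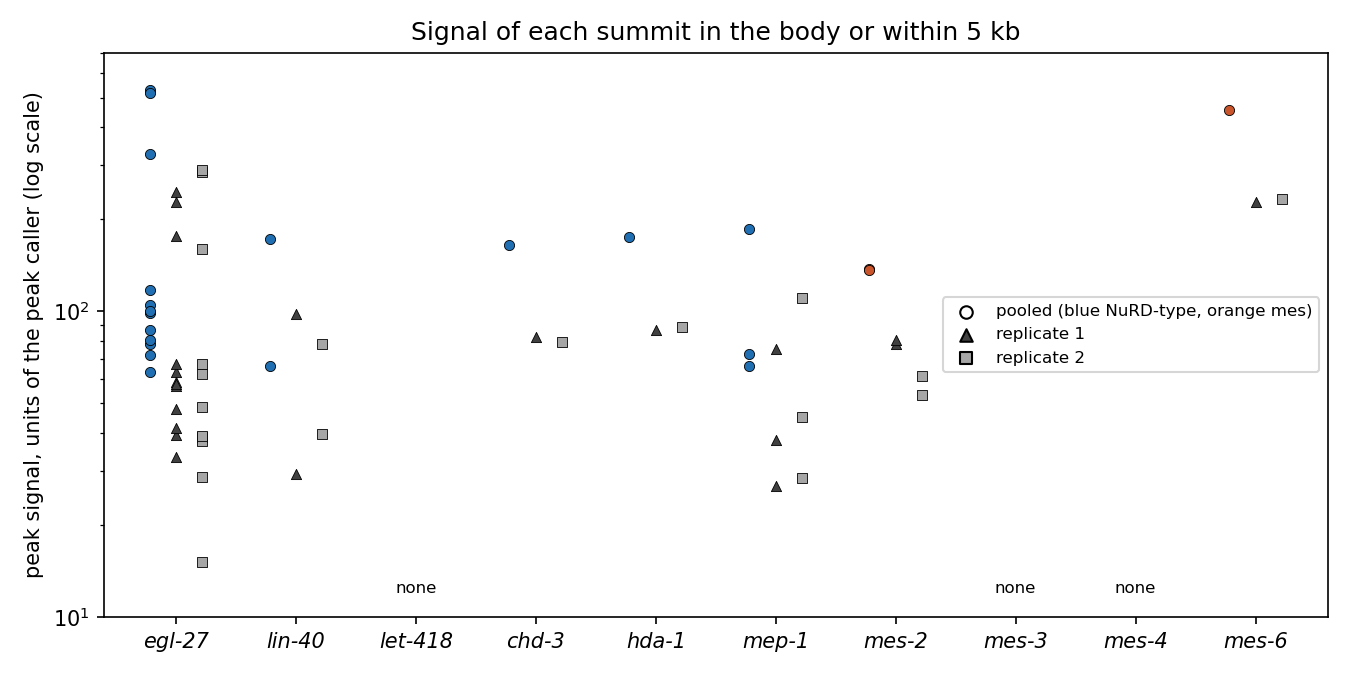
Signal of every thresholded summit in the body or within 5 kb of each gene, on a log scale, in the pooled list (circles) and at the matching summits of replicate 1 (triangles) and replicate 2 (squares). Only egl-27 and mes-6 have a pooled signal above 186, and let-418, mes-3 and mes-4 have no summit.

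By the strongest summit, the order of the genes in the pooled list was egl-27, mes-6, mep-1, hda-1, lin-40, chd-3 and mes-2. The summit that places mep-1 lay nearer to a 5′ end of gfl-1, so its place rests on the 5 kb rule. The first step, from 528 at egl-27 to 456 at mes-6, was 0.21 on the log2 scale, less than the SD of 0.31 of the log2 ratio between replicates in the strongest 20% of peaks. The drop from mes-6 to mep-1 was 1.29 on the log2 scale, against an SD of 0.57 over all peaks, and was present in both replicates. From mep-1 to mes-2 the whole span was 0.44 on the log2 scale, less than that SD. The order of these last 5 genes also changed between replicates, with lin-40 first of them in replicate 1 and mep-1 in replicate 2. That SD is between single replicates and serves as a rough guide for pooled values.

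NuRD-type and mes genes were then set side by side. The 6 NuRD-type genes had 19 summits in 98.2 kb searched, or 1.93 per 10 kb. The 4 mes genes had 3 in 57.5 kb, or 0.521 per 10 kb, beside 0.626 over the nuclear genome. Of the NuRD-type summits, 63.2% belonged to egl-27. Without it, a comparison added after the values had been seen, the other 5 genes had 7 summits, or 0.930 per 10 kb. With the 3000 strongest peaks alone the NuRD-type genes had 7 summits, or 0.713 per 10 kb, and the mes genes still 3. The density of the NuRD-type genes was above that of the mes genes in each of these comparisons, and egl-27 set most of the gap in the full list. Among the 3000 strongest peaks, the 7 NuRD-type summits included the 3 strongest sites of egl-27. The others were the strongest summits of mep-1, hda-1, lin-40 and chd-3, at ranks 1745, 1916, 1984 and 2124. A density without egl-27 was not computed for those peaks. The comparison among them therefore does not place the other NuRD-type genes above the mes genes.

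A promoter summit was found at 3 of 6 NuRD-type genes (egl-27, lin-40 and mep-1) and 2 of 4 mes genes (mes-2 and mes-6), or 50% of each. The NuRD-type count was 4 with a window of 2000 bp upstream to 500 bp downstream, and 2 with one of 500 bp to 100 bp or with the 3000 strongest peaks, while the mes count was 2 in each of these settings. Of the mes summits 2 of 3 were promoter summits, and of the NuRD-type summits 6 of 19, 4 of them at egl-27. The share of promoter summits among all thresholded summits was not computed. The median signal was 100.4 for the NuRD-type summits and 137 for the 3 mes summits. Outside egl-27, no member had an intronic summit.

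**Figure D4:**
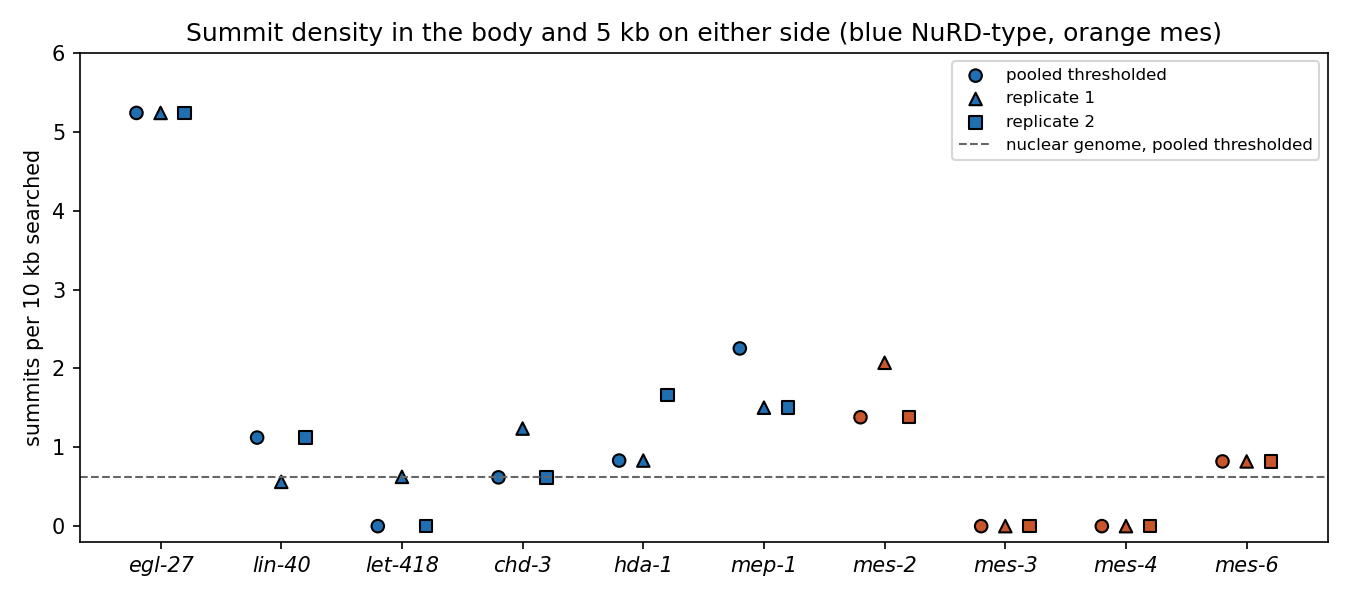
Summits per 10 kb in the body and 5 kb on either side of each gene, in the pooled thresholded list (circles) and in an equal number of the strongest peaks of replicate 1 (triangles) and replicate 2 (squares). The dashed line is the nuclear genome (0.626). The value of egl-27 is 5.24 in all 3 lists, while those of the other genes lie at 2.25 or below.

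The replicates were compared at the 22 summits. In the relaxed lists 21 had a summit within 100 bp in both replicates, beside 5928 of all 6273 thresholded nuclear peaks. The IDR step had already compared the replicates, so this match is not particular to these summits. The exception among the 22 was the egl-27 site 2700 bp upstream, with a signal of 39.4 in replicate 1. A replicate 2 summit lay 109 bp from that site, with a signal of 55.1. Within 50 bp 15 of the 22 were matched in both replicates, and within 200 bp all 22, with no count over all peaks at these distances. Expressed as replicate 2 over replicate 1, the log2 ratio had a median of -0.06 and an SD of 0.62 over the 21, against 0.15 and 0.57 over all matched thresholded peaks. In each replicate's own list, cut at the same number of peaks, egl-27 had 12 summits, mes-6 had 1, and mes-3 and mes-4 had none. The egl-27 summits were not all the same sites: 3 of the 12 in replicate 2 lay over 100 bp from any thresholded summit, against 0 in replicate 1. Promoter summits made up 3 of the 12 in replicate 2 and 4 of the 12 in replicate 1. Replicate 1 had no promoter summit at mep-1 in that list, and replicate 2 had one.

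**Figure D5:**
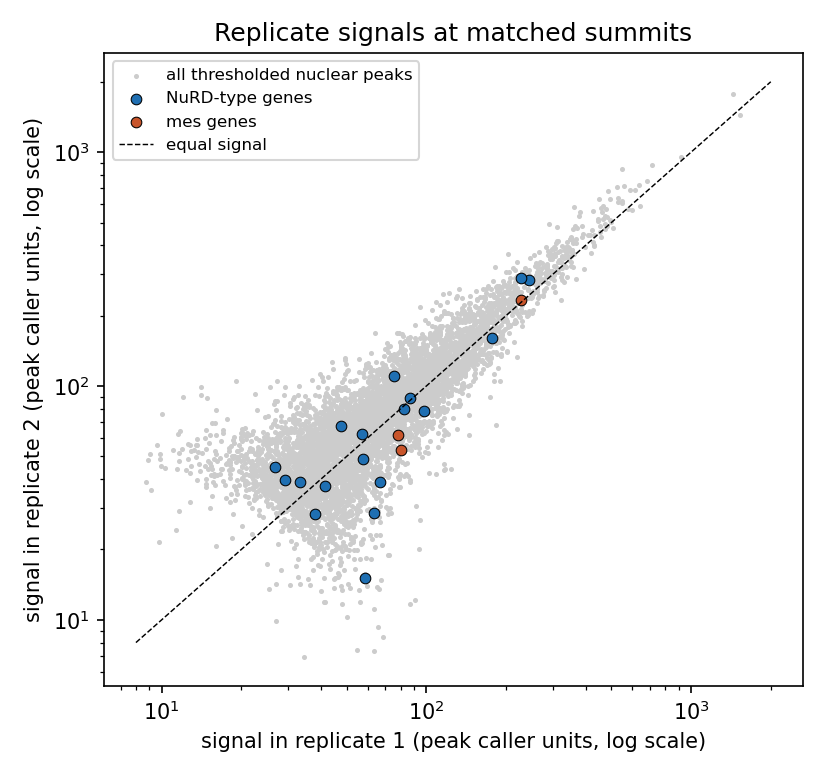
Signal in replicate 1 (horizontal axis) against replicate 2 (vertical axis), both on log scales, for thresholded nuclear peaks found in both (grey) and those at the NuRD-type (blue) and mes (orange) genes; the dashed line marks equal signals. Among the points of these genes, the one farthest below the line is the egl-27 site 40 bp upstream of the first 5′ end, at 58.9 and 15.1.

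The sequence at the summits was searched on both strands within 50 bp. CAGGTG was present at 1 of 22 summits, that of hda-1 (shown above as CACCTG), against 1.80% of all thresholded summits. CANNTG, of which CAGGTG is 1 form, was present at 10 of 22, or 45.5%, against 34.9% of all. GAGAGA was present at 9 of 22, or 40.9%, against 23.3% of all, and the lin-40 promoter site above holds 3 copies of its reverse. None of these 3 motifs was found within 50 bp of the 2 strongest egl-27 summits or of the mes-6 summit. The windows had a median GC content of 41.1%, against 41.6% for all summits. These matches describe the letters in the windows and were not tested.

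Genes of other chromatin complexes, from 7 lists of 55 genes, give the setting. Promoter summits were found at 30 of 55, or 54.5%, beside 5 of 10 members and 16.2% of all protein-coding genes, with no test of the difference. Of 6 further NuRD or deacetylase genes 3 had one, the strongest at dcp-66 (signal 466) and lin-53 (177). Of 6 genes of the SIN3 and CoREST complexes 4 had one, led by sin-3 (285) and rcor-1 (229). Of 10 Polycomb-like or demethylase genes 5 had one, led by sor-1 (452) and sop-2 (427), the latter of a Polycomb-like repressor of Hox genes.

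Of 9 genes linked to histone methylation at active genes 7 had a promoter summit. The strongest were at set-16, a trithorax-like methyltransferase gene, at 973 (467 in replicate 1 and 517 in replicate 2), and at ash-2, at 677. Among 8 heterochromatin genes only lin-13 had one (158). Of these 8 genes, 6 had a summit within 5 kb, with signals up to 791, against 42.3% of all protein-coding genes. Of 11 SWI/SNF genes 8 had a promoter summit, led by pbrm-1 (642) and swsn-3 (295). Of 5 other remodeller genes 2 had one, chd-7 (368) and nurf-1 (335). Promoter summits at set-16, ash-2 and pbrm-1 were stronger than that of mes-6 on the pooled scale and in each replicate, while those of dcp-66 and sor-1 were close to it.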

How the data were processed

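Peaks of 2 replicates of 1 group were used as deposited. The authors, per their deposited notes, called relaxed peaks for each replicate and for the pooled replicates against a control, and thresholded the pooled list by IDR. No aligner or peak caller, nor a version of either, is named in these sources. The signal per peak was deposited by the authors on a scale that is not stated, and served to rank and describe peaks. The deposited −log10 q served only for an alternative list. The control was not analysed here.

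Summits were placed on the Ensembl release 115 annotation of WBcel235, which has the coordinates of the ce11 lists, with Python 3.11.15, pandas 2.3.3 and matplotlib 3.10.9. Summits in different lists were matched within 100 bp. Placement and motif counting were tested on simulated summits. With 1 group and no control list no test between conditions was possible. Members, lists and rules were chosen with earlier results of these data known. All members are named whatever their values. Neighbours are named where they share a summit, and other chromatin genes are the 2 strongest of each list.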

Additional observations from a re-analysis of the deposited data

How the results depend on the processing

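The thresholded list holds no read counts, so the weakest sites, near its lower end of 58.7, are the least certain, and the 5 kb rule can count a neighbour's site. Of 84 recomputed values 58 kept their value within the limits set (1.5 times for counts, 1 SD between replicates for the rest). That SD came from the lists with 1 replicate left out. Both gave 1.93 NuRD-type summits per 10 kb, so any other density counted as changed. For the median signal the SD is on the single-replicate scale. The tally therefore depends on the limits and is no measure of stability. Within 2 kb the densities were 2.57 (NuRD-type) and 0.895 (mes) per 10 kb and the median signal was 136. Within 10 kb there were 30 NuRD-type summits, densities of 1.90 and 0.308 and a median of 117.4. The 3000 strongest peaks gave 7 NuRD-type summits, 0.713 per 10 kb and a median of 180.5. Relaxed pooled peaks with −log10 q of at least 2 gave 2.04, 0.695 and 102.7. Giving each summit to the nearest 5′ end alone gave 1.53, 0.348 and 117.1. Without egl-27, added after seeing the data, there were 7 NuRD-type summits, 0.930 per 10 kb, 0 members with a body summit and a median of 150.8. With 1 replicate left out, the mes density was 0.521 to 0.695 and the median signal 62.0 to 63.5, on the single-replicate scale. Within 25 bp of the summit, CAGGTG was found at 0, CANNTG at 6 and GAGAGA at 5 of 22 summits. No share over all thresholded summits was computed at that distance, so these motif counts cannot be set against a background. These settings changed the genes, peaks or bases searched, and the cause of the changes in value was not tested. NuRD-type density was above mes density in each setting, but the comparison without egl-27 was made only on the full thresholded list within 5 kb. No paired analysis was possible because there was 1 group.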
